A study of Mus musculus with 48 samples.

Results

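The inferior olive of 12-week-old ATXN1-82Q transgenic (Tg) mice was compared with that of their wild-type (WT) controls by RNA sequencing. The comparison holds 6 of the 48 libraries of the study, 3 from Tg and 3 from WT mice. Each library came from a male of the inbred strain FVB/NJ. The table of these libraries lists 26601 entries, of which 13866 carried a gene symbol and averaged 0.5 FPKM or more in WT and in Tg, and all of these were tested. FPKM gives sequenced fragments per length of transcript and per number of mapped fragments, so that levels can be compared between genes.

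The inferior olive is a nucleus of the lower brainstem. Its glutamatergic neurons send climbing fibers to the Purkinje cells of the cerebellum, are joined to each other by gap junctions, and fire in rhythm through T-type calcium and hyperpolarization-activated channels. Spinocerebellar ataxia type 1 is caused by an expanded polyglutamine tract in ATXN1, a chromatin-associated protein that works in a complex with the repressor Capicua, and Purkinje cells and the inferior olive are among the structures that degenerate in it. In Tg mice the human transgene, with 82 glutamines, is driven by the Pcp2 promoter, which is active in Purkinje cells, so that the neurons of the inferior olive are connected to cells that make the mutant protein but are not meant to make it themselves. The question addressed was therefore which transcripts of the inferior olive differ where the mutant protein is in its target cells.

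Other tables of the study were used to set this comparison in context: the inferior olive of Tg mice at 5 weeks, the cerebellum of Tg mice at 12 weeks, and the inferior olive of Atxn1 154Q/2Q knock-in (KI) mice at 12 weeks, each with 3 mutant and 3 WT males. KI mice carry the expansion in the endogenous gene on a C57BL/6J background, so model and strain cannot be told apart. The tissue was taken out by hand with the decussation of the pyramid and the pons as landmarks. Such a piece holds neighboring tissue too, and in bulk RNA fewer cells of a type and less RNA per cell cannot be told apart. Within each genotype comparison the replicates were separate mice. Each p-value of mutant against WT weighs the difference of the means against the spread within 3 and 3 of them.

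Correlations between libraries over the genes tested ran from 0.984 to 0.993, and 12815 to 12973 entries reached 1 FPKM. A few libraries stood apart in small sets of genes. In Tg 1 the acute-phase and neutrophil gene Lcn2 was at 66.6 FPKM against at most 0.688 in the other 5 libraries, and S100a8 was at 35.3 against at most 2.39. Tg 3 held 854 FPKM of growth hormone (Gh) against at most 27.4, with Prl at 147, Cga at 58.6 and the muscle genes Tnnc2 at 12.1 and Acta1 at 20.7, which were chosen after their values were seen. A total of 43 genes in Tg 1 and 28 in Tg 3 were more than 2-fold above every other library, against 3 to 14 in the other 4 libraries. The level of choroid plexus genes differed between all libraries and was lowest in Tg 3. The results that rested most on single libraries are given without them as well.

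No gene was called between Tg and WT inferior olive at 12 weeks (limma, Benjamini-Hochberg adjusted p below 0.05), which is 0% of the genes tested, and the smallest adjusted p was 0.84. The paper, with Cufflinks and an FDR p-value below 0.05, did report genes that differed in this comparison. It listed the defense response among their enriched pathways. At an unadjusted p below 0.05 there were 477 genes, or 3.44%, with 201 higher in Tg (1.45%) and 276 lower (1.99%). The 3 Tg values lay entirely outside the range of the 3 WT values for 1051 genes (7.58%), above it for 489 (3.53%) and below it for 562 (4.05%). Of all genes tested 6705 were higher and 7161 lower in Tg, and the median log2 fold change, here and below the mean log2(FPKM + 0.1) of Tg minus that of WT, was -0.002. The count of 0 became 4 with the replicate number as a block and 1 without WT 2.

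The absence of calls can be read against the precision of the libraries. The median coefficient of variation of FPKM within a genotype was 5.03% in WT and 5.2% in Tg, and the median standard error of a log2 fold change was 0.065. For 98.01% of the genes the 95% interval of the log2 fold change lay within 1 unit of 0, and for 89.4% within 0.5. A 2-fold change therefore lay outside the interval of most genes. The exceptions included 22 of 23 choroid plexus genes and all 6 anterior pituitary genes tested.

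**Figure D1:**
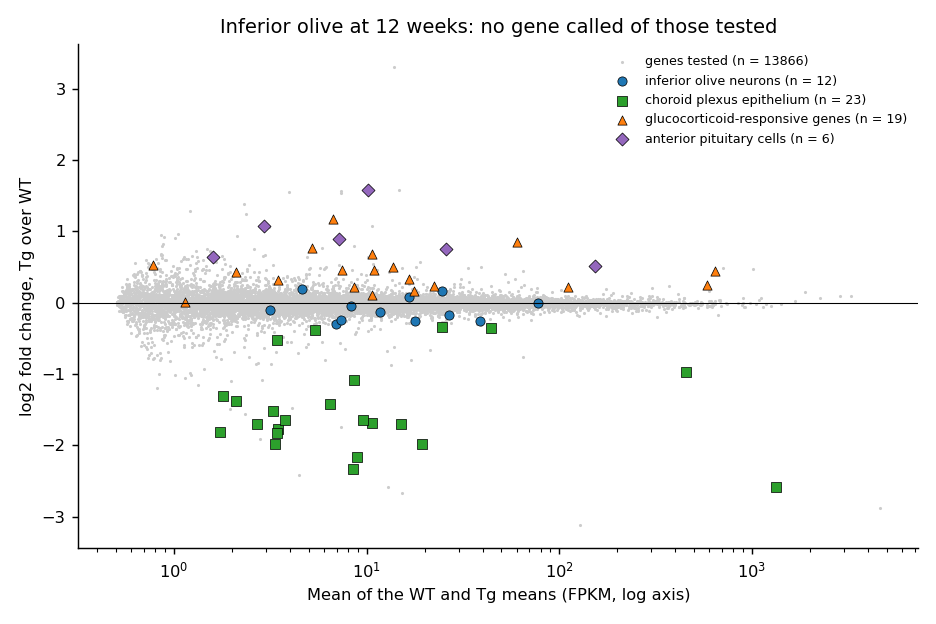
Log2 fold change of Tg over WT inferior olive at 12 weeks (vertical axis) against the mean level in FPKM (horizontal log axis), with 1 point for each of 13866 genes and 4 gene lists marked. The 23 choroid plexus genes all lie below 0, the 19 glucocorticoid-responsive and 6 pituitary genes lie above it, and 9 of 12 inferior olive neuron genes lie slightly below it; none of these genes was called.

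Mouse Atxn1, the gene orthologous to the transgene, was measured at 6.45, 6.36 and 6.04 FPKM in WT and at 6.43, 6.42 and 6.39 in Tg inferior olive. The Tg values lay within the WT range, with a log2 fold change of 0.03 (95% interval -0.09 to 0.15). The same row did not differ in the cerebellum of Tg mice either, at 10.5 FPKM in both genotypes, although the transgene is expressed there, so the mouse row does not register the human transcript and checks neither its presence nor its absence. Pcp2, whose promoter drives the transgene and whose product marks Purkinje cells, was at 4.65, 5.09 and 2.92 FPKM in WT and 3.09, 2.24 and 3.01 in Tg. The groups overlapped, since WT 3 lay among the Tg values, and the log2 fold change of -0.56 (SE 0.21, limma adjusted p = 0.999) was not called. In the cerebellum Pcp2 fell from 622 FPKM in WT to 245 in Tg (log2 fold change -1.35, limma adjusted p = 1.8e-04). The tissues were normalized separately, so their levels are not compared.

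The genes nearest to a call were a mixed set. The rule for naming them took the 10 with the smallest p in each direction among genes of at least 1 FPKM whose groups did not overlap, so that the separation of their values is a consequence of the choice. AU022751 (chrX:5933759-6092399 in mm10) had the smallest p. It was at 1.70, 1.62 and 1.63 FPKM in WT and at 0.837, 0.863 and 0.662 in Tg, a log2 fold change of -0.99 (SE 0.13, limma adjusted p = 0.84). Cox6b2 (chr7:4751445-4753094), which encodes the testis-type form of a cytochrome c oxidase subunit, was at 9.04, 7.64 and 6.56 FPKM in WT and 4.56, 4.53 and 4.04 in Tg. Its log2 fold change was -0.80 (SE 0.11, adjusted p = 0.84), with all Tg libraries close together and WT 1 highest. Cox6b2 also fell in the Tg cerebellum (log2 fold change -0.68, adjusted p = 0.021), and the difference between the tissues was small (-0.12) and not called. At 5 weeks it was higher in Tg inferior olive by 0.33 log2 units without being called.

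The other 8 genes lower in Tg had log2 fold changes between -0.58 and -0.17. They included C1ql1, which encodes the climbing fiber ligand described below, and Ano2, which encodes a calcium-activated chloride channel. Ano2 was at 2.77, 2.61 and 2.86 FPKM in WT and 2.02, 2.31 and 1.97 in Tg (log2 fold change -0.37). Klc3, a kinesin light chain gene, had the lowest value of these at -0.58, and Tusc3, which encodes a subunit of the oligosaccharyltransferase, was at -0.20. Other entries were Fam71f2,Hilpda (-0.45), in which the overlapping genes Fam71f2 and Hilpda share an entry, Mafa (-0.29) and 1810043H04Rik (-0.17). None of the 8 had an adjusted p other than 0.999.

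The 10 genes higher in Tg had log2 fold changes between 0.15 and 0.95, all with an adjusted p of 0.999. Mfsd2a (chr4:122946851-122961188), which encodes the lysophospholipid transporter of the blood-brain barrier, had the smallest p. It was at 26.4, 26.6 and 24.8 FPKM in WT and 31.7, 32.0 and 29.7 in Tg (log2 fold change 0.26, SE 0.047). Trem2 (chr17:48346401-48352276), a lipid receptor of microglia, was at 5.44, 5.27 and 5.25 in WT and 6.41, 6.63 and 6.14 in Tg (0.26). Mertk, which encodes a receptor for the uptake of dying cells, was at 6.04, 6.76 and 6.22 in WT and 8.30, 7.78 and 7.33 in Tg (0.30). In each of these genes the gap to WT was narrow, and in Mertk the Tg libraries spread from 7.33 to 8.30. Apod (0.19), for a lipid carrier, Lrrc8a (0.15), for the volume-regulated anion channel, Htra3 (0.35), for a serine protease, and Carhsp1 (0.16), for an RNA-binding protein, were also higher, as were Pmaip1 (0.53), for a pro-apoptotic protein, LOC101056136 (0.61) and Mustn1 (0.95). Mustn1, a gene known from muscle and bone, was at 0.435 to 0.626 FPKM in WT and 0.991 to 1.53 in Tg.

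Neurons of the inferior olive were described by 12 genes, and every one of them was detected in every library. The list is not specific to this nucleus, since 10 of the genes also passed the expression filter in the cerebellum. Their detection therefore does not check the dissection. Slc17a6, which encodes the vesicular glutamate transporter of these cells, was the most abundant at 74.8 to 79.2 FPKM. The sum of the 12 genes was 250 to 252 FPKM in WT and 234 to 241 in Tg. Of the 12 genes 9 were lower and 3 higher in Tg, with a median log2 fold change of -0.12 against -0.002 over all genes. A total of 6 genes were lower at an unadjusted p below 0.05 with groups that did not overlap, where these shares were 1.99% and 4.05% of all genes, and 1 was higher at that p. None was called (limma adjusted p = 0.999 for each), and the list was chosen with earlier results of these data known.

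C1ql1 (chr11:102939264-102946461) encodes a secreted protein that climbing fibers release onto Purkinje cells to maintain their synapses. It was at 41.3, 41.3 and 44.3 FPKM in WT and at 32.4, 36.9 and 36.7 in Tg, a log2 fold change of -0.26 (SE 0.059). Tg 1 was the lowest, and all 3 Tg libraries were below all WT libraries. Htr5b (chr1:121431025-121528465), a serotonin receptor gene of few brain nuclei, was at 7.49, 7.72 and 7.85 in WT and 6.59, 5.52 and 6.58 in Tg (-0.30, SE 0.077). Crh (chr3:19693401-19695396), for the corticotropin-releasing hormone that climbing fibers contain, was at 19.4, 18.9 and 19.9 in WT and 18.6, 14.0 and 16.3 in Tg (-0.26, SE 0.093). In both genes Tg 2 was the lowest, and in Crh Tg 1 lay just under the WT range.

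The transcription factor gene Pou4f1 was at 8.19, 8.10 and 7.73 FPKM in WT and 7.32, 6.20 and 6.84 in Tg (log2 fold change -0.24). Calb1, for the calcium buffer calbindin, was at 29.8, 28.0 and 27.0 in WT and 25.5, 24.6 and 25.1 in Tg (-0.17). Cacna1g, for a T-type calcium channel, was at 12.3, 11.8 and 12.8 in WT and 11.4, 11.0 and 11.3 in Tg (-0.13). These 3 genes shared the pattern of C1ql1, with a small gap between the genotypes and no overlap. Etv1, for a transcription factor, was higher in Tg (0.16) with overlapping groups, at 21.5 to 24.8 in WT and 24.7 to 28.0 in Tg. The transcription factor gene Foxp2 (-0.10), Gjd2 (-0.05), which encodes the neuronal connexin, and Slc17a6 (-0.01) were lower with overlapping groups. With any 1 library left out, the median of the list stayed between -0.13 and -0.10, and C1ql1, Htr5b and Crh stayed lower in Tg, at -0.29 to -0.20, -0.35 to -0.22 and -0.36 to -0.16.

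The same 12 genes showed no such shift in Tg mice at 5 weeks, where 7 were higher and 5 lower with a median of 0.02 and none had an unadjusted p below 0.05, as 6.56% of all genes did at that age. C1ql1 was then at a log2 fold change of 0.09, Htr5b at -0.05, Crh at 0.01, Pou4f1 at 0.24, Calb1 at 0.24 and Cacna1g at 0.08. The difference between the ages was not called for any of the 12 genes. In KI mice at 12 weeks the median was -0.33, and 6 of the 12 genes were called, all lower, where 1.22% of all genes were called lower in KI. These were the same 6 genes, with log2 fold changes in KI of -2.03 for Crh, -1.56 for Htr5b, -0.80 for C1ql1, -0.64 for Pou4f1, -0.52 for Calb1 and -0.30 for Cacna1g. The Tg and KI comparisons have no libraries in common. The list was chosen with earlier results of these data known, so the shared genes are no independent evidence. Crh went from 20.6, 18.5 and 17.2 FPKM in WT to 4.52, 3.87 and 5.21 in KI, and Htr5b from 9.02, 7.22 and 6.47 to 2.25, 2.40 and 2.81.

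The difference between the models was called for Crh (Tg minus KI 1.77, SE 0.16, limma adjusted p = 7.1e-04) and for Htr5b (1.26, SE 0.16, adjusted p = 0.0071), both less reduced in Tg. It was not called for C1ql1 (0.54, adjusted p = 0.20), Pou4f1 (0.40, 0.42), Calb1 (0.34, 0.19) and Cacna1g (0.17, 0.61), which does not show that they changed alike. The 5-week, Tg and KI values of each gene are set side by side in the plot of inferior olive neuron genes.

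**Figure D2:**
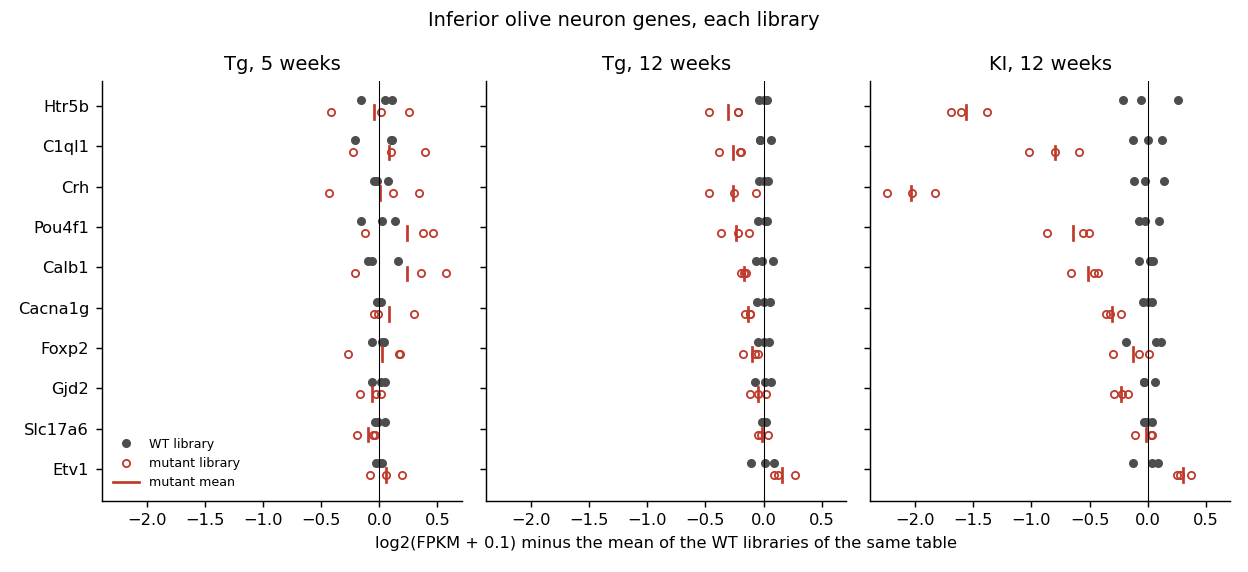
Levels of 10 of the 12 inferior olive neuron genes in each library as log2(FPKM + 0.1) minus the mean of the WT libraries of the same table, for Tg mice at 5 weeks, Tg mice at 12 weeks and KI mice at 12 weeks (filled points WT, open points mutant, bars mutant means). At 12 weeks Htr5b, C1ql1 and Crh lie at -0.30, -0.26 and -0.26 in Tg and at -1.56, -0.80 and -2.03 in KI.

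Genes of neuronal signaling beyond this list differed little. Neuropeptide genes were lower in 20 and higher in 8 of 28 tested, with a median log2 fold change of -0.09 (-0.03 without Tg 2). Of all genes 1.99% were lower at an unadjusted p below 0.05, and of the neuropeptide genes 3 were. These were Crh, Nppb (-0.49), for a natriuretic peptide, and Adcyap1, for the peptide PACAP, which was at 20.3, 19.7 and 19.6 FPKM in WT and 18.6, 18.4 and 18.0 in Tg (-0.11). The neuropeptide median was -0.28 in KI mice, where 7 genes were called lower (1.22% of all genes). Calcium and HCN channel genes had a median of -0.03 (7 of 22 higher), with Cacna1g the only one at that p. Ionotropic glutamate receptor genes had a median of -0.001 (8 of 17 higher), with Grin2c higher (0.18) and Gria1 lower (-0.10) at that p. Gria1 was at 31.8, 31.3 and 30.6 in WT and 27.9, 29.4 and 29.9 in Tg, a narrow gap with no overlap.

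GABA-A and glycine receptor genes were higher in 14 of 19, with a median of 0.04 and 1 gene higher at an unadjusted p below 0.05. Connexin genes were split evenly at 6 and 6 with a median of -0.005, and only Gjb6, an astrocyte connexin gene, passed an unadjusted p of 0.05 (0.21, higher). Of 22 genes for trophic factors and receptors of climbing fibers, 12 were higher, the median was 0.003, and C1ql1 and Igfbp2 were lower at that p. Partners of ataxin-1 differed little, and 13 genes lay between -0.03 and 0.04, with a median of -0.006. Among them were Cic, for Capicua, at -0.03, and Atxn1l, for the paralog of ataxin-1, at -0.02. Targets of Capicua and of MAPK feedback had a median of -0.03 (5 of 17 higher), and only Etv1, counted above, passed the unadjusted threshold.

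Immune and glial lists were examined because interferon-stimulated genes, which cells turn on against viruses, were higher in the KI inferior olive. In Tg they were split, with 17 of 31 tested higher, 14 lower and a median of 0.005, and 31 of 31 intervals lay within 1 log2 unit of 0. The 1 gene at an unadjusted p below 0.05 was Bst2, which was lower at 5.87, 5.19 and 3.597 FPKM in WT and 3.76, 3.29 and 2.71 in Tg (-0.56). Irf7, the master regulator of the type I interferon response, was at 0.773, 1.06 and 0.786 in WT and 0.801, 0.838 and 0.846 in Tg, a log2 fold change of -0.05. In KI mice Irf7 rose from a mean of 1.49 to 3.91 FPKM (1.34, limma adjusted p = 0.0032), 35 of 35 interferon-stimulated genes tested were higher and the median was 0.44. A total of 15 of them were called higher, as were 0.265% of all genes in KI. The difference between the models was called for Irf7 (-1.39, SE 0.20, adjusted p = 0.012) and missed the threshold for Ifih1 (-0.67, 0.055), Rtp4 (-1.14, 0.056) and Ifit1 (-0.93, 0.073). With the replicate number as a block the difference was no longer called for Irf7 (adjusted p = 0.066) and was called for Rtp4 (adjusted p = 0.040).

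Microglia genes were higher in 14 of 18, with a median log2 fold change of 0.14. C1qa, which starts the complement cascade, was at 26.2, 26.7 and 27.2 FPKM in WT and 50.2, 26.1 and 28.9 in Tg, and the protease gene Ctss was at 44.9, 45.8 and 51.4 in WT and 87.1, 47.1 and 47.2 in Tg. Tg 1 alone was high in both, and without it the median of the list was 0.03. Trem2 was the only microglia gene at an unadjusted p below 0.05 and was high in every Tg library. Complement and coagulation genes (18 of 24 higher, median 0.12) and cytokine and NF-kB genes (17 of 23, median 0.06) were also highest in Tg 1, the library with neutrophil and acute-phase transcripts, and without it their medians were 0.17 and 0.04. Without WT 3 the complement median was 0.08. The complement inhibitor gene Serping1 (0.45) was higher and the acute-phase gene Lbp (-1.42) lower at an unadjusted p below 0.05. Antigen presentation genes were split 7 to 7 with a median of 0.01.

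Astrocyte genes were split 8 to 8, with a median of 0.02, and all 16 intervals lay within 0.5 log2 units of 0. Gfap, the intermediate filament gene of astrocytes, was at 272, 264 and 277 FPKM in WT and 240, 258 and 291 in Tg (-0.05), with overlapping groups. Gjb6 was higher (0.21) and the transcription factor gene Sox9 lower (-0.18) at an unadjusted p below 0.05. In KI mice the median of the astrocyte list was -0.32 with 10 of 16 genes called lower, against 1.22% of all genes. The difference between the models was called for 5 astrocyte genes, against 0.211% of all genes, Itih3, Fgfr3, Agt, Gja1 and Slc1a2, each higher in Tg relative to KI. Genes of reactive astrocytes were higher in 16 of 19 tested in Tg, with a median of 0.10, among them Cp (0.53), for ceruloplasmin, at 4.67 to 6.35 in WT and 6.28 to 12.1 in Tg. Tg 1 held the highest Cp value, and the median of the list was 0.08 without Tg 1 and 0.08 without Tg 3. Oligodendrocyte genes had a median of 0.006 (10 of 15 higher), with the myelin gene Mobp at 0.21, and genes of oligodendrocyte precursors had a median of -0.009 (5 of 11).

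Genes that glucocorticoids induce shared a direction. All 19 tested were higher in Tg, with a median log2 fold change of 0.43. At an unadjusted p below 0.05 there were 8, and the groups did not overlap for 10, where these shares were 1.45% and 3.53% of all genes. The list was chosen with earlier results of these data known, so these counts are no independent evidence. Tsc22d3, which encodes the glucocorticoid-induced leucine zipper, was at 106, 110 and 93.3 FPKM in WT and 121, 119 and 119 in Tg (0.22, limma adjusted p = 0.999). Sgk1, for a serum- and glucocorticoid-induced kinase, was at 60.6, 44.1 and 25.5 in WT and 106, 54.2 and 70.1 in Tg (0.85). Plin4, for a lipid droplet protein, was at 4.37, 5.11 and 2.26 in WT and 16.2, 7.32 and 5.12 in Tg (1.17). Tg 1 was the highest library in Sgk1 and Plin4 and WT 3 the lowest, while in Tsc22d3 the 3 Tg libraries were level.

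Fkbp5, for a co-chaperone of the glucocorticoid receptor, was at 7.97, 10.2 and 8.77 FPKM in WT and 18.0, 10.3 and 10.3 in Tg (0.47). The cell cycle inhibitor gene Cdkn1a was at 8.69, 8.24 and 6.41 in WT and 21.8, 9.73 and 9.04 in Tg (0.68). Pdk4, for a pyruvate dehydrogenase kinase, was at 10.8, 10.7 and 10.8 in WT and 26.1, 12.3 and 11.2 in Tg (0.51). In all 3 genes Tg 1 was far above the rest and the other Tg libraries were slightly above WT. The mean log2 level of the list, relative to the WT mean, was 0.11, 0.14 and -0.24 in WT 1 to 3 and 0.79, 0.23 and 0.27 in Tg 1 to 3. Without Tg 1 the median was 0.23 with 18 genes higher and 5 at an unadjusted p below 0.05, and without WT 3 it was 0.29 with 18 higher and 2 at that p. The list showed a median of -0.11 in Tg inferior olive at 5 weeks (6 of 20 higher), 0.02 in KI inferior olive and 0.20 in Tg cerebellum at 12 weeks. Handling of the mice and the time of collection are not given per library in the sources used here, and their part in the result was not tested. Clock genes, which follow the time of day, had a median of 0.01 (10 of 18 higher) with all 18 intervals within 0.5. The time of collection was not tested with them.

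**Figure D3:**
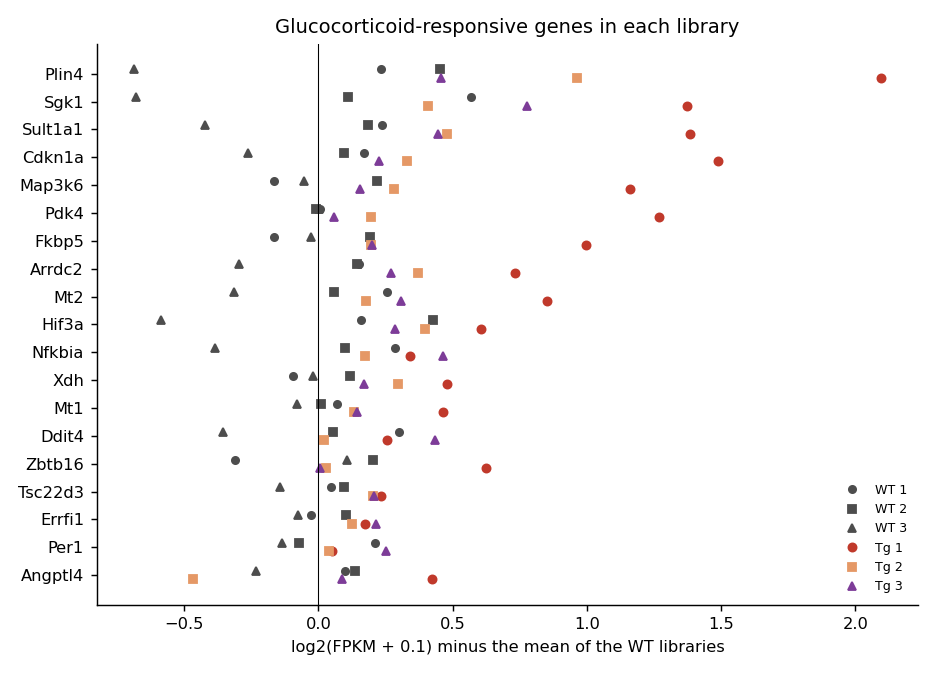
Levels of 19 glucocorticoid-responsive genes in each of the 6 libraries as log2(FPKM + 0.1) minus the WT mean. Tg 1 is the highest library for most genes, Tg 2 and Tg 3 lie mostly between 0 and 0.5, and WT 3 is the lowest for many genes.

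Other stress-related lists had medians nearer to 0, a contrast that was not tested. Immediate early genes, which neurons and other cells induce within minutes of a stimulus, were higher in 19 of 25 with a median of 0.09, which lay between 0.02 (without Tg 3) and 0.17 (without WT 1) with a library left out, and Junb (0.23) and Fosl2 (0.19) were higher at an unadjusted p below 0.05. Junb was at 5.89, 5.52 and 5.70 FPKM in WT and 6.58, 6.28 and 7.28 in Tg. Heat shock genes had a median of -0.02, with 6 of 22 higher. The value of -2.89 for Dnaja1 in that list came from WT 2, where it was listed at 27454 FPKM against 60.9 to 74.9 in the other 5 libraries. Housekeeping genes had a median of -0.03 (2 of 10 higher), and all 10 intervals were within 0.5.

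Vascular genes were mostly higher in Tg. Endothelial genes were higher in 18 of 23 with a median of 0.15, which stayed between 0.09 and 0.18 with any 1 library left out. Those higher at an unadjusted p below 0.05 were Mfsd2a, described above, Slc2a1, Abcb1a and Ly6c1, which encode the glucose transporter and the efflux pump of the blood-brain barrier and a surface protein of endothelial cells. Slc2a1 was at 60.2, 62.8 and 56.7 FPKM in WT and 76.7, 70.5 and 65.9 in Tg (log2 fold change 0.24). Abcb1a was at 9.69, 10.6 and 9.35 in WT and 10.8, 12.0 and 11.3 in Tg (0.20). Each Tg library exceeded each WT library in both genes. Ly6c1 was at 45.1, 46.7 and 40.9 in WT and 78.1, 51.7 and 49.5 in Tg (0.40), and Pltp, for a phospholipid transfer protein, was the 1 endothelial gene lower at that p (-0.37). The pan-endothelial tight junction gene Cldn5 was at 14.9 to 20.1 in WT and 16.1 to 19.0 in Tg (0.02).

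Mural cell genes were higher in 11 of 13 with a median of 0.08, led by Rgs5 (0.09) at an unadjusted p below 0.05. The mural cell median was 0.01 without Tg 3 and 0.14 without Tg 1. Perivascular macrophage genes were higher in 6 of 7 with a median of 0.39, which was 0.18 without WT 3. Mrc1, the mannose receptor gene, was at 0.829, 0.969 and 0.766 FPKM in WT and 1.30, 1.09 and 1.28 in Tg (0.47), and Cbr2 (0.82) was also higher at that p. Genes of angiogenic signaling had a median of 0.05 (23 of 33 higher), with the growth factor genes Fgf1 (0.15) and Fgf2 (0.28) higher at that p. Collagen and matrix genes had a median of 0.10 (17 of 27), among them Spp1, which was at 63.6, 72.5 and 64.3 in WT and 73.4, 78.7 and 77.4 in Tg (0.20), and Fn1 (0.54), with a median of 0.02 without Tg 3, 0.04 without WT 3 and 0.17 without Tg 1. Hemoglobin and iron genes (4 of 9 higher, median -0.001) and erythrocyte genes (1 of 3, median -0.12) did not move with the endothelial list.

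Among markers of tissue next to the inferior olive, those of choroid plexus varied widely in both genotypes. Choroid plexus genes were lower in Tg in 23 of 23 tested, with a median of -1.65. Ttr, the transthyretin gene and the most abundant transcript of choroid plexus epithelium, was at 3358, 1915 and 827 FPKM in WT and 1226, 673 and 29.8 in Tg (-2.58). The groups overlapped, since WT 3 lay below Tg 1 for every gene of the list. Between libraries of the same number Tg was lower in 23, 23 and 21 of the 23 genes for numbers 1, 2 and 3. The mean log2 level of the list relative to the WT mean was 0.78, 0.10 and -0.88 in WT 1 to 3 and -0.35, -1.08 and -3.02 in Tg 1 to 3, and its summed level was 1315 to 4629 FPKM in WT and 287 to 1821 in Tg. At an unadjusted p below 0.05 there were 8 genes, where 1.99% of all genes were lower at that p. Among the 8 was Enpp2, for a lysophospholipase, at 884, 574 and 364 in WT and 420, 319 and 181 in Tg (-0.98). The median of the list was -0.74 without Tg 3 and -2.3 without Tg 1.

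With the replicate number as a block, 4 genes were called, all lower in Tg: Ace (-0.62), Enpp2 (-0.98), Lbp (-1.42) and Calml4 (-1.08), with adjusted p between 0.016 and 0.033. Enpp2, Lbp and Calml4 belong to the choroid plexus list, and Ace, for the angiotensin-converting enzyme, was at 23.3, 16.2 and 11.1 FPKM in WT and 14.8, 10.3 and 7.45 in Tg, the same order of libraries. The median of the choroid plexus list was 0.95 in Tg inferior olive at 5 weeks, where 23 of 23 genes were higher, -1.10 in KI inferior olive and 0.84 in Tg cerebellum. A further list held 6 genes that the study named in the Tg inferior olive from its 5-week libraries, so their direction at that age is no independent evidence. At 12 weeks Folr1 (-2.16), Kl (-1.71), Lbp (-1.42), Gdf7 (-0.74) and Bmp7 (-0.02) were lower and Nov (0.67) was higher, with a median of -1.08 (-0.62 without Tg 3 and -1.89 without Tg 1) against 0.86 at 5 weeks. Folr1, Kl and Lbp are also in the choroid plexus list, and Nov and Bmp7 in that of the leptomeninges.

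Genes of leptomeningeal fibroblasts, cells of the brain coverings, were higher in 15 of 21 with a median of 0.26 and no common direction at an unadjusted p below 0.05, where Nov was higher and Igfbp2 lower. Igfbp2, for a binding protein of insulin-like growth factors, was at 112, 87.0 and 50.8 FPKM in WT and 52.9, 45.7 and 41.7 in Tg (-0.77). Ependymal genes had a median of -0.08 (2 of 9 higher), which was -0.24 without WT 3. The leptomeningeal median was 0.03 without Tg 3, -0.01 without WT 3 and 0.45 without Tg 1. Pituitary genes (6 of 6 higher, median 0.82) were high in Tg 3 alone, and their median without it was -0.68. Neutrophil genes (3 of 3 tested, median 1.54) were high in Tg 1 alone, with a median of 0.16 without it. Serotonergic genes, which mark the raphe next to the inferior olive, were higher in 7 of 7 with a median of 0.24, and this rested on WT 1. Tph2, the serotonin synthesis gene, was at 4.78, 11.3 and 10.5 in WT and 9.74, 11.4 and 11.6 in Tg, and without WT 1 the median of the list was 0.07.

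The remaining neuron lists were near 0 or set by few values. Cholinergic motor neuron genes had a median of 0.02 (5 of 6 higher), catecholaminergic genes one of 0.008 (3 of 5), and glycinergic and GABAergic neuron genes one of 0.003 (5 of 7), with Lhx5 lower (-0.24) at an unadjusted p below 0.05. Granule cell genes had a median of 0.16 (5 of 9), which was -0.08 without WT 3. Gabra6, a granule cell receptor gene, was at 3.26, 3.06 and 0.428 FPKM in WT and 3.70, 2.67 and 1.32 in Tg (0.47), lowest in WT 3 and in Tg 3. The part of these neighbors in any other difference was not tested beyond a fit with the choroid plexus level as a covariate, in which the median of the inferior olive neuron list was -0.11 and that of the glucocorticoid list 0.70.

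**Figure D4:**
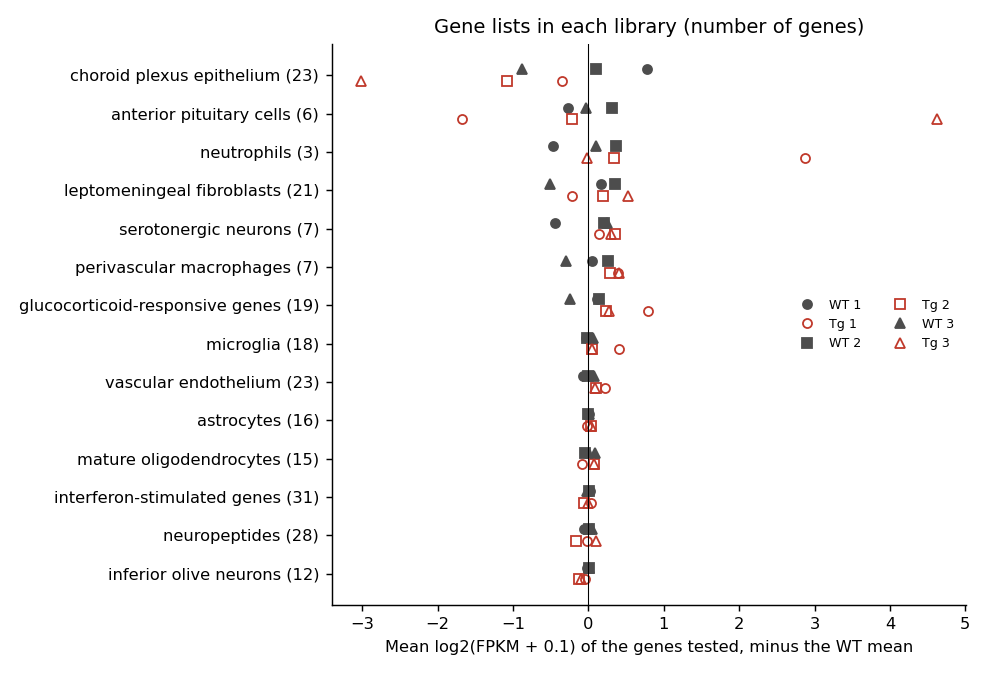
Mean log2(FPKM + 0.1) of 14 gene lists in each of the 6 libraries, minus the mean of the WT libraries, with the number of genes in parentheses. Choroid plexus genes spread from 0.78 in WT 1 to -3.02 in Tg 3, pituitary genes are high in Tg 3 and neutrophil genes in Tg 1, while astrocyte, oligodendrocyte and interferon-stimulated lists lie close to 0 in all libraries.

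Whether the inferior olive and the cerebellum of Tg mice differed in response at 12 weeks was tested directly, as the transgene is expressed in Purkinje cells of the cerebellum. The genotype effect differed for 601 of 12353 genes tested in both tissues (limma, adjusted p below 0.05), or 4.87%, with the inferior olive value above the cerebellar one for 435 and below it for 166. In the cerebellum 1018 of 13620 genes were called, 306 higher and 712 lower in Tg. Of these 924 were tested in both tissues, and 50 of them had an unadjusted p below 0.05 in the inferior olive, where 422 of all 12353 joined genes (3.42%) did. The median absolute log2 fold change of the 924 genes was 0.45 in the cerebellum and 0.046 in the inferior olive, where that of all joined genes was 0.041. Of 295 genes that rose in the cerebellum 165 were higher in Tg inferior olive, and of 629 that fell 337 were lower. The count of 601 was 374 without WT 1, 349 without WT 2, 379 without Tg 2 and 399 without Tg 3. The labels do not say whether the same mice gave both tissues, and the fit treated the 12 libraries as independent.

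Purkinje cell genes showed this difference. All 14 genes of the Purkinje cell list fell in the cerebellum, where 5.23% of all genes were called lower, with a median log2 fold change of -1.32, and their median in the inferior olive was -0.03 with 6 higher and 8 lower. The difference between the tissues was called for 13 of them, against 4.87% of all genes, and not for Pcp2 (0.78, limma adjusted p = 0.11). Rgs8, for a regulator of G protein signaling, fell from 216 to 44.7 FPKM in the cerebellum and had a log2 fold change of -0.05 in the inferior olive, a difference of 2.22 (SE 0.10, limma adjusted p = 7.0e-07). Fgf7 (difference 2.95), Garnl3 (1.67), Gng13 (2.45) and Rmdn3 (1.14) followed the same course, with values between -0.08 and 0.06 in the inferior olive. In the other direction Hrk, for a pro-apoptotic protein (-1.85), Mxra7 (-1.10), Prdx6, for a peroxiredoxin (-0.47), and Slc39a12, for a zinc transporter (-0.58), rose in the cerebellum and lay between -0.04 and 0.01 in the inferior olive.

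Some genes of the inferior olive list are used by Purkinje cells too. Calb1 fell by 1.42 log2 units in the cerebellum and Cacna1g from a mean of 51.1 to 18.0 FPKM, and for both the difference between the tissues was called (1.25 and 1.37). Microglia genes had a median of 0.62 in the Tg cerebellum and 4 of 19 were called higher, as were 2.25% of all genes there. Trem2 missed the threshold for a difference between the tissues (-0.50, adjusted p = 0.051).

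**Figure D5:**
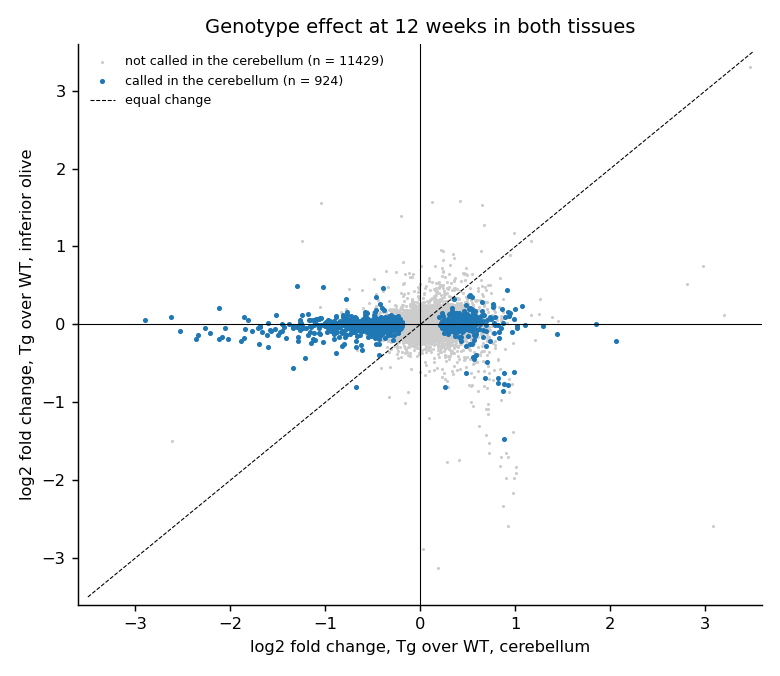
Log2 fold change of Tg over WT at 12 weeks in the cerebellum (horizontal axis) and in the inferior olive (vertical axis), with 1 point per gene tested in both and a dashed line of equal change; 2 genes lie outside the axes. The 924 genes called in the cerebellum spread to about 3 log2 units there and lie close to 0 in the inferior olive.

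Between 5 and 12 weeks the genotype effect in the Tg inferior olive did not differ for any of 12866 genes (limma, 0% called, smallest adjusted p 0.60), and 831 had an unadjusted p below 0.05. No gene was called at 5 weeks on its own either, of 13853 tested, with 909 at an unadjusted p below 0.05. The genes nearest to a difference were Cox6b2 (12 minus 5 weeks -1.13), the semaphorin gene Sema3b (-1.43), Cpne2 (-0.67), Fam122a (-0.32) and Mgat4b (-0.25), and in the other direction Trim17 (1.15), Ift27 (0.32), Gm13629 (0.31), Kndc1 (0.27) and Lrrc8a (0.26). The volume-regulated anion channel gene Lrrc8a was higher in Tg at 12 weeks (0.15) and lower at 5 weeks (-0.11).

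With the replicate number of each table as a block, 52 genes were called for a difference between the ages, 49 of them negative. Of the 52 genes 13 were in the choroid plexus list, and 45 followed the level of that list with a correlation above 0.7. The correlation was taken over the 6 libraries at 12 weeks relative to their group means, and the 13 genes contribute to that level. Of all 13866 genes tested at 12 weeks, 9744 did not follow it, with an absolute correlation of 0.7 or less. That criterion took correlations of either sign, whereas the count of 45 took positive ones only, so the counts are not alike. The genes with a positive difference were Mfsd2a (0.47), Dio2 (0.69), for the enzyme that activates thyroid hormone, and Trim17 (1.15), and Cox6b2, Cpne2 and Sema3b were among the negative ones. By list, the median difference of 12 minus 5 weeks was -2.65 for choroid plexus, 0.57 for glucocorticoid-responsive genes and -0.17 for inferior olive neurons.

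Between the models at 12 weeks the genotype effect in the inferior olive differed for 27 of 12773 genes (limma, 0.211%), with Tg above KI for 26 and below it for Irf7. In KI 208 of 13968 genes were called, 37 higher and 171 lower. Of these 188 were tested in both models, and their median absolute log2 fold change was 0.37 in KI and 0.069 in Tg, against 0.041 over all joined genes in Tg. Of the 158 genes that fell in KI 94 were lower in Tg, and of the 30 that rose 17 were higher. A total of 15 of the 188 genes had an unadjusted p below 0.05 in Tg, where 439 of all 12773 joined genes (3.44%) did. Of these, 13 were lower in both models, namely the 6 inferior olive neuron genes and Cnih3, Gria1, Lypd1, Nrgn, Stac, Vstm2l and 6330403A02Rik, while Dock9 was higher in both and Smox was higher in Tg and lower in KI. The count of 27 was 55 without Tg 1, 13 without Tg 2 and 17 without WT 2, and 12 with the replicate number as a block.

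Over the 27 genes the median absolute log2 fold change was 0.092 in Tg and 0.54 in KI. Calb2, for the calcium buffer calretinin, was at a log2 fold change of 0.03 in Tg and fell from 110 to 73.2 FPKM in KI (difference 0.61). Cck, for cholecystokinin (difference 0.85), was at -0.16 in Tg and -1.01 in KI. Itih3 (0.63) and Ttyh1 (0.43), genes of astrocytes, were at -0.06 and 0.05 in Tg and fell in KI. Stac (0.93), Cnih3 (0.65), for an auxiliary protein of AMPA receptors, Crh and Htr5b were lower in Tg at an unadjusted p below 0.05 and lower still in KI. Gpr98 (0.80) and 9630013A20Rik (1.14) were higher in Tg at that p, at 0.34 and 0.43, and lower in KI without being called there.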

How the data were processed

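RNA-seq reads of the inferior olive and cerebellum were aligned with TopHat2 (v2.1.0) against mm10, and levels were computed with Cufflinks (v2.2.1), Cuffnorm and Cuffdiff, per the submitters' processing notes. Levels were deposited as FPKM, which the authors normalized across the 6 libraries of a table, so effects and not levels were compared between the 4 tables used. The tables also hold group averages and Cuffdiff test status, fold changes, p-values and q-values, which were not used. Entries without a symbol (2985, or 11.2%) or with a number in its place (25) were left out, and 581 entries hold several genes (463 tested). Symbols with more than 1 entry (1035 entries) were tested but left out of list values. Positions are the deposited loci.

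Values were tested as log2(FPKM + 0.1) with limma (3.58.1, R 4.3.3), a trended prior variance and Benjamini-Hochberg adjustment over all genes that averaged 0.5 FPKM or more in each group, and genes with an adjusted p below 0.05 were called. A fold change on this scale understates that of low genes. Differences between ages, tissues and models were contrasts over 12 libraries with 1 mean per group. An exact permutation test of 3 against 3 libraries cannot go below p = 0.1 and was not used. The scripts were tested on simulated data.

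Named genes were, in each direction, the 10 with the smallest p among genes of at least 1 FPKM with groups that did not overlap, the list members with the smallest p or the highest level, Atxn1 and Pcp2, and the 5 genes with the smallest p for each difference and direction. The members and the 42 gene lists were chosen with earlier results of these data known. Some genes that the rule selects are not reported here. Read counts are not given, so depth is unknown. The smallest steps of the values put the libraries at 0.875 to 1.11 times the depth of WT 1.

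Tg and WT libraries share replicate numbers in the labels. Deviations from the group means correlated at 0.25, 0.11 and 0.26 between same-numbered libraries over 13866 genes. Over the 9744 genes that did not follow the choroid plexus level the correlations were -0.20, 0.14 and -0.18. Whether the numbers pair the mice is therefore unclear, and the replicate block was used as an alternative. The fit without the replicate block is the one reported, with the blocked value where it changed a call.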

Additional observations from a re-analysis of the deposited data

Results flagged for a closer look

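The genotype effect of Tg mice at 12 weeks differed between the inferior olive and the cerebellum for 601 genes, by the test of the difference itself (limma, adjusted p below 0.05). Among the named genes the difference, inferior olive minus cerebellum on the log2 scale, was 2.22 for Rgs8, 2.95 for Fgf7, 1.67 for Garnl3, 2.45 for Gng13 and 1.14 for Rmdn3. It was -1.85 for Hrk, -1.10 for Mxra7, -0.47 for Prdx6 and -0.58 for Slc39a12.

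The effect in the inferior olive at 12 weeks differed between Tg and KI mice for 27 genes by the same test. The difference, Tg minus KI, was 1.77 for Crh, 0.61 for Calb2, 0.63 for Itih3, 0.43 for Ttyh1 and -1.39 for Irf7. Model and strain cannot be told apart in these values. Libraries far from the others of their group were not tested for, since each group holds 3.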

How the results depend on the processing

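The count of genes called in the Tg inferior olive was 0 under other pseudocounts, centering, quantile normalization, a stricter filter, no trend, array weights and the choroid plexus level as a covariate. It was 1 without a filter (Rprl3, listed at 0 in all WT libraries), 4 with the replicate block and 0 to 1 with a library left out (Gm12338 without WT 2, log2 fold change -1.24). The count for 12 against 5 weeks was 1 without a filter, 52 with the replicate block and 0 with any library left out. For inferior olive against cerebellum the 601 genes became 1519 with array weights, 233 with the choroid plexus covariate and 349 to 622 with a library left out, and 223 of the 233 were among the 601. For Tg against KI the 27 genes became 14 without a trend, 100 with array weights, 12 with the replicate block and 13 to 55 with a library left out. The causes were not tested. Among named genes the sign turned for Gjd2 with array weights (0.023), for Slc17a6 with the choroid plexus covariate (0.021) and with a library left out (-0.033 to 0.0081, positive without Tg 3), and for Ttr with the choroid plexus covariate (0.14), and the replicate block ended the call for Irf7 (adjusted p = 0.066) between the models. Of the other log2 fold changes of named genes in Tg 1245 kept their direction and side of the threshold, and Enpp2 and Lbp passed it with the replicate block, as did Ace and Calml4. Of the differences between effects of named genes 454 kept direction and side of the threshold, and 18 values passed it under an alternative, among them Rtp4, Ifih1 and Ifit1 with array weights and Cox6b2 and Trim17 with the replicate block. Of the medians of lists 643 moved by less than the spread between libraries and 28 by more. Depth is unknown, so no floor can be given for genes at or near 0.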
